A study of Mus musculus with 6 samples.

Results

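The 9 genes of fatty acid oxidation described here are Cpt1a, Slc25a20 and Cpt2 of the carnitine shuttle, the acyl-CoA dehydrogenases Acadvl, Acadl and Acadm, the trifunctional protein genes Hadha and Hadhb, and the peroxisomal Ehhadh. They were chosen by the measured levels of Cpt1a, since 1 of its probe sets lay higher on all days in the line with truncated DNMT1, so every difference between the lines is given here as a description, without a test. The genes were represented by 16 of 45037 probe sets, those whose annotation names one of them alone, and they are 9 of 18193 genes on the array. Where several probe sets stand for a gene, the brightest on average gives its level. Genes were counted as measured where their mean signal reached a floor of 41.2 (log2 5.37), which 13277 genes did, among them all 9, and 14 of the 16 probe sets reached it.

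Expression was read on 6 Affymetrix arrays, with 1 array per day (0, 4 and 7) for both of 2 lines of mouse embryonic stem cells. Both are Dnmt1/3a/3b triple knockout (TKO) stem cells, without their own DNA methyltransferase genes, and both express a DNMT1 ubiquitously. In the deletion line (TKO_602) the expressed DNMT1 lacks its N-terminal 602 amino acids, and in the full-length line (TKO_FL) it is complete. Day 0 cells grew with 10% FBS and leukaemia inhibitory factor (LIF). By day 4 they had formed embryoid bodies for 1 day and then adhered for 3 days without LIF. The day 4 cultures are listed with 0% FBS and 0% KSR. By day 7 the cells had been cultured 3 days more in medium with 10% KSR, 0% FBS and 10 ng/ml Activin A. As a DNMT1 form came with its own line, the form and the line cannot be told apart. Time, the loss of FBS and LIF, and embryoid body formation go together between days 0 and 4. Time, medium and Activin A go together between days 4 and 7. The source label of the deletion line at day 0 describes differentiated cells, and its title, which gives day 0, was used.

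Mitochondria burn long-chain fatty acids by beta-oxidation. A fatty acid is first joined to coenzyme A, and CPT1 on the outer mitochondrial membrane moves it onto carnitine, the step that malonyl-CoA inhibits. The carrier SLC25A20 takes the acylcarnitine across the inner membrane, CPT2 returns it to coenzyme A, and repeated rounds of dehydrogenation, hydration, a second dehydrogenation and thiolysis shorten the chain. Pluripotent cells are known to draw on glycolysis and glutamine, and fatty acid oxidation has been studied in them as a fuel that changes with the pluripotent state.

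All 12 pluripotency markers listed for these cells were measured and none was at the floor on any array, and Pou5f1, which encodes OCT4, lay over the 3 days at 13.66, 13.53 and 13.56 in the deletion line and at 14.02, 13.89 and 13.21 in the full-length line. The markers were not steady as a list: 3 of 12 were called lower at day 4 than at day 0, among them Klf4, which fell 12.4-fold (adjusted p = 0.000735, limma), and 2 at day 7. Their summed signal was 144200, 113500 and 141600 in the deletion line and 175300, 90510 and 104800 in the full-length line. On each array between 12571 and 12812 of the measured genes lay above the floor. Levels are log2 MAS5 signals, with no replicate of any line and day, so the number of arrays limits the precision. They can be compared between arrays for 1 probe set but not between probe sets. An array of a cell mixture cannot tell fewer cells of a type from less RNA per cell. An adjusted p comes from limma, with additive terms for line and day and Benjamini-Hochberg adjustment over 13277 genes, and a gene was called at 0.05. The spread in that test is the disagreement of the lines about each change over time, moderated over genes, and nothing in the labels says that it reflects repeated cultures.

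Cpt1a encodes the CPT1 form of liver and most other tissues. At its brightest probe set, 1434866_x_at, the level was 9.98, 9.98 and 11.01 in the deletion line at days 0, 4 and 7, against 8.71, 7.28 and 8.02 in the full-length line. The lowest deletion line array lay above the highest full-length array, and the difference was 1.27, 2.70 and 2.99 log2 units at days 0, 4 and 7, a mean of 2.32 or 4.99-fold. A further probe set, 1438156_x_at, read 7.90, 7.26 and 8.51 in the deletion line, against 7.20, 6.56 and 7.31 in the full-length line, with differences of 0.70, 0.70 and 1.20. The remaining probe set, 1460409_at, read 9.33, 9.69 and 10.35 in the deletion line, against 9.68, 9.03 and 9.35 in the full-length line. There the deletion line lay lower at day 0 by a log2 difference of -0.35 and higher at days 4 and 7 by 0.66 and 1.00.

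The 3 Cpt1a probe sets therefore had the deletion line higher at days 4 and 7 in every case, and at day 0 in 2 of 3. The excess over the full-length line at day 7 was between 1.00 and 2.99 log2 units, depending on the probe set. Both probe sets that were higher in the deletion line on all days carry the suffix _x_at, which Affymetrix gave to probe sets whose probes can also match other sequences. Of the 1756 probe sets with that suffix whose mean signal reached the floor, 23.9% lay higher in the deletion line on all 3 days, against 15.2% of the 23637 with neither that suffix nor _s_at. What part other sequences had in the Cpt1a signal was not tested.

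Over time Cpt1a was not called. Its log2 change at the brightest probe set was -0.72 between days 4 and 0 (SE 0.40, adjusted p = 0.447, limma), 0.89 between days 7 and 4 (SE 0.40, adjusted p = 0.451, limma) and 0.17 between days 7 and 0 (SE 0.40, adjusted p = 0.873, limma). To day 4 that probe set had a change of 0.00 in the deletion line and -1.43 in the full-length line, and 1460409_at had 0.36 and -0.65, while 1438156_x_at had -0.64 in both lines. The difference between the lines was not tested. From day 4 to day 7 all 3 probe sets were higher in both lines, by 0.66 to 1.25 in the deletion line and by 0.32 to 0.75 in the full-length line.

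The promoter of Cpt1a is shown since the lines differ in a DNA methyltransferase, whose substrate is the CpG dinucleotide, and since the choice of genes began with this one. It covers 250 bases before to 50 after a RefSeq start within the annotated gene, GRCm38.p6 chr19:3323051-3323350 on the plus strand, with CpG dinucleotides in capitals.
Cpt1a promoter: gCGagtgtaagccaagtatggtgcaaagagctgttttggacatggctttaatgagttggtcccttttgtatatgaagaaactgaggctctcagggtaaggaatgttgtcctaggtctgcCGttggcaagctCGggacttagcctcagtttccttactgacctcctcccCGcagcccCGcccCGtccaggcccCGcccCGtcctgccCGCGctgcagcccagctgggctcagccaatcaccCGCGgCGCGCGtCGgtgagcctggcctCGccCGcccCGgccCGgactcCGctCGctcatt
It holds 22 CpG dinucleotides in 300 bases, and methylation was not measured here. The promoters of the 9 genes held between 9 and 34, with a median of 17, against a median of 19 over 13710 promoters of measured genes.

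**Figure D1:**
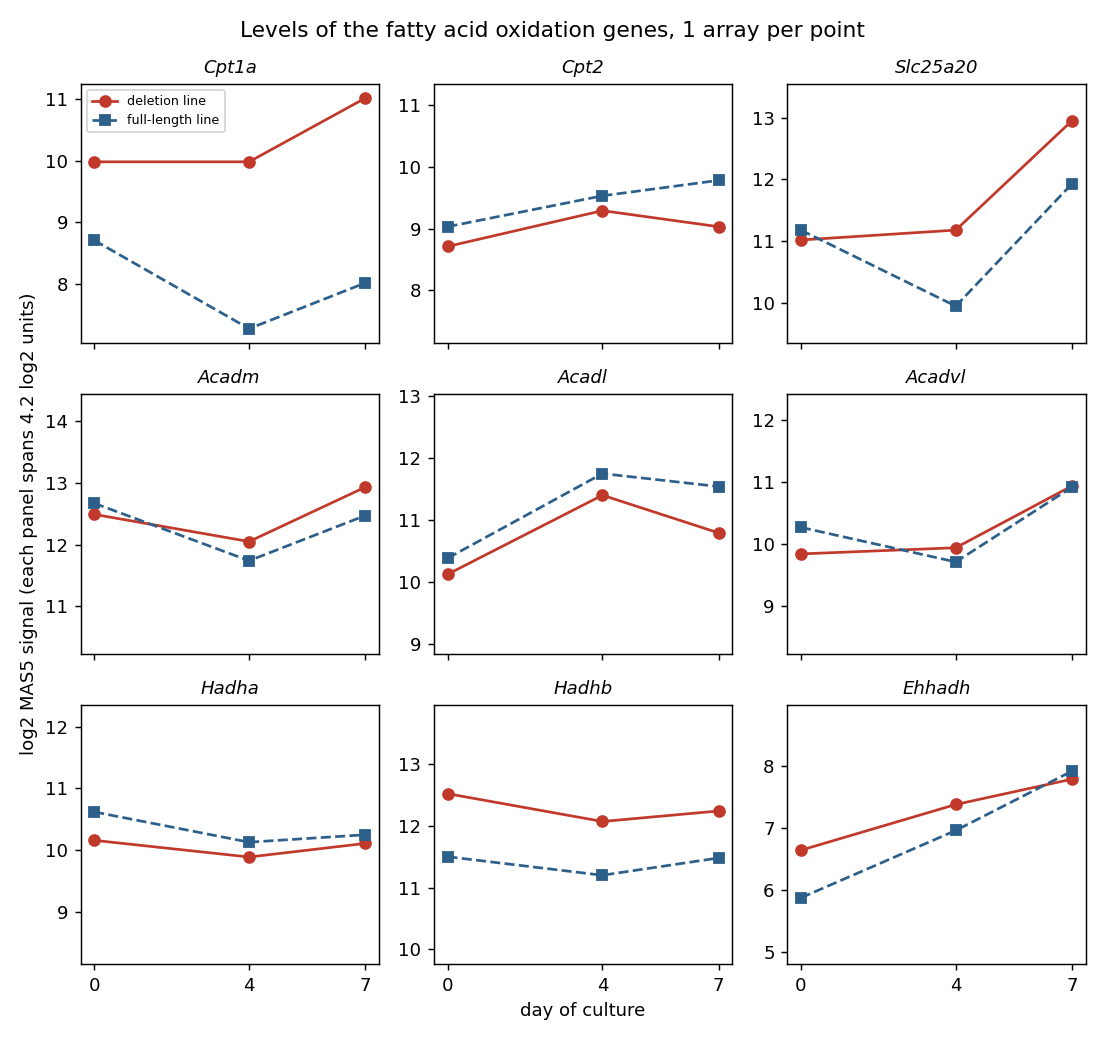
Log2 MAS5 signal (vertical axis, each panel spanning 4.2 log2 units around its own range) against day of culture for the brightest probe set of each gene, in the deletion line (solid, circles) and the full-length line (dashed, squares), 1 array per point. Cpt1a and Hadhb lay higher in the deletion line on all 3 days, as did 13.7% of all measured genes. Cpt2, Acadl and Hadha lay lower on all 3 days, as did 20.2%. At Cpt1a 1460409_at and Hadhb 1426522_at, not drawn here, the deletion line was lower at day 0, by -0.35 and -0.44. Acadl was the called gene between days 4 and 0.

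Slc25a20, the carnitine-acylcarnitine carrier, had levels of 11.02, 11.18 and 12.95 in the deletion line at days 0, 4 and 7, against 11.18, 9.95 and 11.93 in the full-length line. At this probe set, 1423108_at, the deletion line differed by -0.16 log2 units at day 0 and lay higher by 1.23 and 1.02 at days 4 and 7. The second Slc25a20 probe set, 1423109_s_at, read 9.50, 9.83 and 11.77 in the deletion line and 10.15, 8.97 and 10.83 in the full-length line. It had the same order of lines on each day, with differences of -0.65, 0.86 and 0.94. Both probe sets were at their highest at day 7 in both lines.

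Between days 7 and 4 Slc25a20 was higher by 1.77 in the deletion line and 1.98 in the full-length line, the largest change of the 9 genes in that step. Its log2 difference of 1.88 (SE 0.31, adjusted p = 0.10, limma) was not called, nor was that of 1.34 between days 7 and 0 (SE 0.31, adjusted p = 0.0966, limma). The step from day 0 to day 4 went opposite ways in the lines, 0.16 in the deletion line and -1.23 in the full-length line.

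Cpt2, which encodes the inner membrane transferase, had levels of 8.71, 9.29 and 9.03 in the deletion line, against 9.03, 9.53 and 9.78 in the full-length line. The deletion line was the lower one on each day, by log2 differences of -0.32, -0.24 and -0.75. That is the opposite order to both Cpt1a probe sets with the suffix _x_at, while Cpt1a 1460409_at also had the deletion line lower at day 0, by -0.35. A dim second Cpt2 probe set lay between 4.56 and 5.96 and had the deletion line higher at day 0 and lower afterwards. No time change of Cpt2 was called, with a log2 change of 0.54 between days 4 and 0 (SE 0.25, adjusted p = 0.339, limma).

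**Figure D2:**
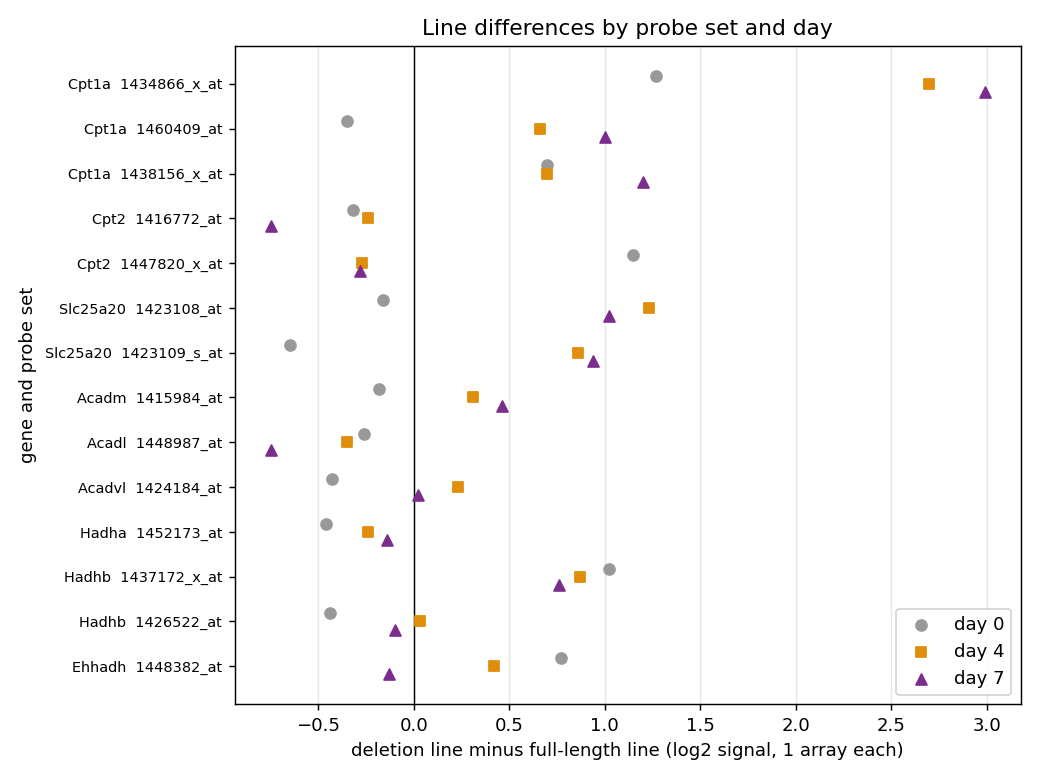
Deletion line minus full-length line (horizontal axis, log2 signal, 1 array each) at days 0, 4 and 7 for the 14 probe sets whose mean signal reached the floor (vertical axis). The brightest Cpt1a probe set reached 2.99 at day 7, and the Cpt1a and Hadhb probe sets without the suffix _x_at lay on both sides of 0.

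Acadl, the long-chain acyl-CoA dehydrogenase, was the 1 gene of the 9 called between days 4 and 0, a step in which 1.58% of the measured genes were called. Its levels were 10.12, 11.40 and 10.79 in the deletion line at days 0, 4 and 7, against 10.38, 11.75 and 11.54 in the full-length line. It rose 2.51-fold to day 4 (log2 1.33, SE 0.19, adjusted p = 0.0274, limma), by 1.28 in the deletion line and 1.37 in the full-length line, so that both day 4 arrays lay above both day 0 arrays. At day 7 it was still 1.89-fold above day 0 (log2 0.92, SE 0.19, adjusted p = 0.0747, limma), which was not called.

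The call of Acadl was lost without any 1 of the 4 arrays of days 0 and 4, with adjusted p between 0.189 and 0.430, where 1 array stood for a day, and its log2 change then lay between 1.18 and 1.47. It was also lost with no filter on dim genes, with the mean over probe sets, without the trend in the variance and with day as the only term. The other Acadl probe set lay between 0.25 and 4.83, below the floor on every array, and gives no level. The 15 of 16 visceral endoderm markers that were measured also had a higher summed signal at day 4, of 8197 in the deletion line and 5872 in the full-length line, against 2938 and 1912 at day 0, and their Ttr and Afp were at the floor on both day 0 arrays. Spink1 of that list was lower at day 4, from 10.32 to 9.54 in the deletion line and from 8.62 to 8.44 in the full-length line. Hnf4a went from 6.27 to 6.42 in the deletion line and from 6.99 to the floor in the full-length line. The other measured markers of that list were higher at day 4 in both lines. The 10 of 12 fibroblast markers that were measured had summed signals of 1068 and 1184 at day 4 in the deletion and full-length lines, against 14570 and 6377 at day 0, and the 8 trophoblast markers 11360 and 22950 at day 4, against 4014 and 4038 at day 0. The trophoblast sums at day 4 came mainly from the keratin genes Krt8 and Krt18, with log2 changes of 3.80 and 3.28 to day 4. Tfap2c of the same list changed by -0.995, and Gata3, Hand1 and Ascl2 by 0.82, 0.59 and 1.63. Cdx2 and Elf5 lay at or near the floor on the day 0 and day 4 arrays. The part of other cell types in the Acadl change was not tested.

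The Acadl promoter is shown with that of Acadvl because they hold the most and the fewest CpG dinucleotides of the 9 genes, 34 and 9. Both are on the minus strand of GRCm38.p6, at chr1:66863260-66863559 and chr11:70015379-70015678, written 5′ to 3′ with CpG dinucleotides in capitals.
Acadl promoter: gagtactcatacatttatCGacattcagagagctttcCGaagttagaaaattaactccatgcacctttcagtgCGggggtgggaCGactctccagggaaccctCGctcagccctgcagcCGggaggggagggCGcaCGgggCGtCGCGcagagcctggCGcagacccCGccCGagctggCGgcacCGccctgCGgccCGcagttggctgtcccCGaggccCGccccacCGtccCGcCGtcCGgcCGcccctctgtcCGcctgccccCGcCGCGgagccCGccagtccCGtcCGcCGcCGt
Acadvl promoter: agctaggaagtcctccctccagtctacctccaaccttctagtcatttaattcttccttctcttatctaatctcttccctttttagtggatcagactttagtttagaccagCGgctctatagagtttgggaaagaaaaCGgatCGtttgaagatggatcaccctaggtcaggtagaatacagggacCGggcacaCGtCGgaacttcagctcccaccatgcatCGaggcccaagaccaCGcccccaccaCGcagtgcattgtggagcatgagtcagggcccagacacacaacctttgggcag
The GC box GGGCGG, searched on both strands, was found 4 times in the Acadl promoter, 3 times in that of Cpt1a and in none of Acadvl and Acadm. It stood in 7 of the 9 promoters and in 60.5% of the promoters of measured genes. The direct repeat of AGGTCA around a single free base, of the kind bound by PPAR with RXR, and TCAAGGTCA, the site of the estrogen-related receptors, were in none of the 9 windows on either strand, and in 0.0365% and 0.277% of the promoters of measured genes. These are matches of letters in windows of 300 bases.

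Acadvl, the very long-chain acyl-CoA dehydrogenase of the inner membrane, had levels of 9.84, 9.94 and 10.94 in the deletion line, against 10.27, 9.71 and 10.92 in the full-length line. The lines lay within 0.02 of each other at day 7, after a difference of -0.43 at day 0. Both day 7 arrays lay above the other arrays, with log2 differences over day 4 of 1.00 in the deletion line and 1.21 in the full-length line, and the mean of 1.11 was not called (SE 0.22, adjusted p = 0.150, limma).

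Acadm, the medium-chain acyl-CoA dehydrogenase, lay at 12.49, 12.05 and 12.93 in the deletion line, against 12.67, 11.74 and 12.47 in the full-length line. Day 4 was the lowest day in both lines. Neither the log2 change to day 4, -0.69 (SE 0.19, adjusted p = 0.136, limma), nor that from day 4 to day 7, 0.81 (SE 0.19, adjusted p = 0.198, limma), was called. Of these dehydrogenases Acadl thus had its highest level at day 4 in both lines, while Acadvl and Acadm had theirs at day 7, except for Acadm in the full-length line, which was highest at day 0.

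Hadha and Hadhb encode the alpha and beta subunits of the mitochondrial trifunctional protein, which carries out the last steps of each round on long chains. They are read in opposite directions from starts 272 bases apart, so their promoter windows overlap. The bases that lie in both windows are shown, GRCm38.p6 chr5:30155003-30155230, plus strand, the sense strand of Hadhb, with its 15 CpG dinucleotides in capitals.
Hadha and Hadhb shared: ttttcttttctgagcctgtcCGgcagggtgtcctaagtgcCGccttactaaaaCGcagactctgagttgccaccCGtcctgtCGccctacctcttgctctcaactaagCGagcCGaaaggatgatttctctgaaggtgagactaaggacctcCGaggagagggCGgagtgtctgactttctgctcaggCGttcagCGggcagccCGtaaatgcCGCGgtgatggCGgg

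Hadha had levels of 10.16, 9.89 and 10.11 in the deletion line at days 0, 4 and 7, against 10.62, 10.13 and 10.25 in the full-length line. Its line differences were -0.46, -0.24 and -0.14. Hadhb at its brightest probe set, 1437172_x_at, read 12.52, 12.07 and 12.24 in the deletion line, against 11.50, 11.20 and 11.48 in the full-length line, and all 3 deletion line arrays lay above the full-length arrays. A second Hadhb probe set of like brightness, 1426522_at, read 11.38, 11.36 and 11.55 in the deletion line and 11.82, 11.33 and 11.65 in the full-length line. Its differences of -0.44, 0.03 and -0.10 were near those of Hadha and not those of 1437172_x_at, which were 1.02, 0.87 and 0.76. The Hadhb probe sets thus gave no single direction between the lines.

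Over time neither subunit was called. Hadha had log2 differences of -0.38 to day 4 (SE 0.20, adjusted p = 0.398, limma) and 0.17 from day 4 to day 7 (SE 0.20, adjusted p = 0.797, limma). Hadhb had log2 differences of -0.38 (SE 0.16, adjusted p = 0.306, limma) and 0.23 (SE 0.16, adjusted p = 0.648, limma). The remaining Hadhb probe set had a mean signal below the floor.

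Ehhadh encodes the bifunctional enzyme of peroxisomal beta-oxidation and was a dim gene on these arrays. Its levels were 6.64, 7.38 and 7.79 in the deletion line, against 5.87, 6.96 and 7.92 in the full-length line. Each later day lay above the earlier one in both lines. Among the other 8 genes this order was seen for Slc25a20 and Acadvl in the deletion line and for Cpt2 in the full-length line. The log2 difference between days 7 and 0 was 1.60, or 3.03-fold (SE 0.37, adjusted p = 0.0914, limma), and was not called.

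**Figure D3:**
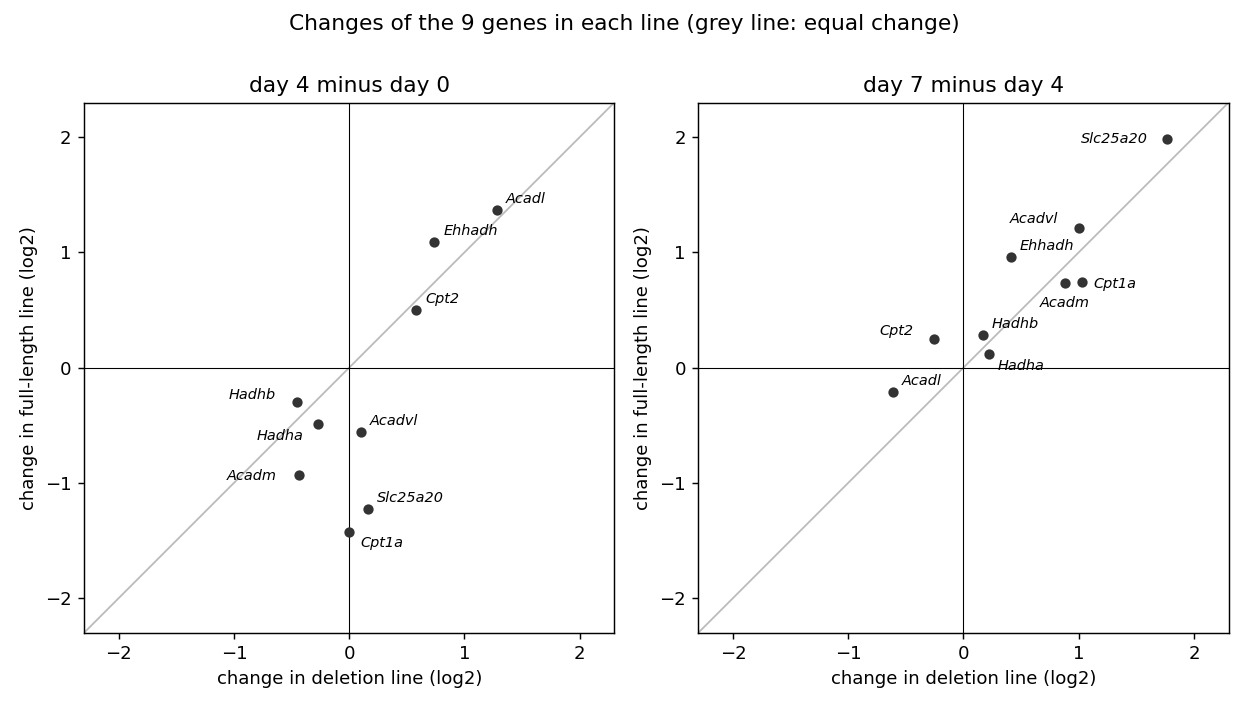
Log2 change in the deletion line (horizontal axis) and in the full-length line (vertical axis) for the 9 genes, from day 0 to day 4 (left) and from day 4 to day 7 (right), 1 array per line and day, with a grey line at equal change. Slc25a20, Cpt1a and Acadvl lay near 0 in the deletion line and below it in the full-length line to day 4, and 7 of 9 genes were higher at day 7 than at day 4 in both lines.

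Set side by side, 7 of the 9 genes were higher at day 7 than at day 4 in both lines. From day 0 to day 4, 3 of 9 were higher in both lines (Acadl, Ehhadh and Cpt2) and 3 lower in both (Acadm, Hadha and Hadhb), near the 35.9% and 26.5% of all measured genes. From day 4 to day 7, 7 were higher in both lines and Acadl was lower in both, where 28.3% of all measured genes were higher and 27.8% lower in both lines. The median log2 change of the 9 genes in that step was 0.69, against -0.01 over all measured genes, and 0 of 9 were called with limma, in a step in which 0.0151% of genes were called. At an unadjusted p under 0.05, 3 of 9 passed, Slc25a20, Acadvl and Acadm, against 11.9% of all genes. Between days 7 and 0, 0 of 9 were called with limma and 1.03% of all genes (0.64% higher and 0.392% lower), and 4 of 9 had an unadjusted p under 0.05, against 17.3%. The steps before and after day 4 share the day 4 arrays. Between days 7 and 4 the summed signal of the trophoblast markers was also higher, at 17650 in the deletion line and 42360 in the full-length line on day 7, against 11360 and 22950 on day 4. That of the fibroblast markers was 2321 and 1899 on day 7, against 1068 and 1184 on day 4, and that of the visceral endoderm markers 7719 and 3504, against 8197 and 5872. The trophoblast sums came mainly from Krt8 and Krt18, which were higher by log2 0.82 and 0.655 at day 7 than at day 4. In the full-length line the fibroblast rise came mainly from Col1a2, at 8.10 and then 9.87. Col1a1, Col3a1 and Postn were lower at day 7 in that line. In the deletion line Col1a2, Col3a1 and Postn were all higher at day 7. The part of these cell types in the changes of the 9 genes was not tested.

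Between the lines, 2 of 9 genes lay higher in the deletion line on all 3 days, Cpt1a and Hadhb, and 13.7% of all measured genes did. The deletion line lay lower on all 3 days for 3 of 9, Cpt2, Acadl and Hadha, and for 20.2% of all measured genes. At least a 2-fold excess in the deletion line was seen for Cpt1a and Hadhb at day 0 and for Cpt1a and Slc25a20 at days 4 and 7, against 3.14%, 2.43% and 3.95% of genes on those days, and 0 of 9 genes were 2-fold lower on any day, against 2.82%, 3.52% and 8.92%. When each gene was read from its brightest probe set without the suffix _x_at or _s_at, a setting chosen after seeing the data, 0 of 9 lay higher on all 3 days.

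The genes whose 6 levels lay nearest to those of Cpt1a, each centred on its own mean, were Nupr1, a stress-induced chromatin protein gene, with a root mean square distance of 0.44 log2 units, the nuclear non-coding RNA Malat1 at 0.53, Platr4 at 0.55, the sialyltransferase gene St8sia1 at 0.60 and Ninl at 0.61. Nupr1 lay at 9.35, 8.39 and 10.26 in the deletion line and at 7.05, 6.60 and 7.25 in the full-length line. Of the other 8 genes Hadhb was the nearest to Cpt1a at 0.88, with 112 of the measured genes nearer, and Slc25a20 followed at 0.97, with 306 nearer. Acadl was the farthest at 1.69. These distances rest on 6 arrays and on 1 probe set a gene, of the _x_at kind for Cpt1a and Hadhb and of the _s_at kind for Malat1. The 6 Cpt1a levels hold its difference between the lines, in view of which the genes were chosen. The ranking is therefore a description and no separate support for that difference. Distances to Cpt1a 1460409_at were not computed. Of the other Malat1 probe sets 1 was lower in the deletion line on all days, with differences of -0.41, -0.27 and -0.23.

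The rest of the pathway was read from 9 lists that together hold 138 genes, of which 115 were measured. Of these, 3 were called between days 4 and 0, 0 between days 7 and 4 and 2 between days 7 and 0, all with limma, against 1.58%, 0.0151% and 1.03% of all measured genes. At an unadjusted p under 0.05, 20, 21 and 30 of the 115 passed, against 16.2%, 11.9% and 17.3% of all measured genes, which are also the background for each list's count in these steps. Over 10 other settings, the calls of the genes outside the 9 were kept in 6 for Esrrb, 5 for Plin2 at day 4, 7 for Plin2 at day 7 and 3 for Acaa2. In the mitochondrial beta-oxidation list all 23 genes were measured and Acadl was the 1 called at day 4. At an unadjusted p under 0.05 (limma), 3, 6 and 6 of the 23 passed between days 4 and 0, 7 and 4, and 7 and 0. The median change of that list was 0.03 to day 4 and 0.25 from day 4 to day 7, against 0.05 and -0.01 over all genes. In it Acaa2, the mitochondrial thiolase that ends a round, rose 2.20-fold between days 0 and 7 (log2 1.14, SE 0.19, adjusted p = 0.0484, limma), with levels of 9.77, 9.99 and 11.06 in the deletion line and 10.03, 9.95 and 11.02 in the full-length line. That call was lost without any 1 of the 6 arrays, with adjusted p between 0.141 and 0.330, and 2 further Acaa2 probe sets had log2 changes of 0.88 and 1.02. Acads, the short-chain acyl-CoA dehydrogenase, had a log2 change of 0.58 from day 4 to day 7 (adjusted p = 0.330, limma).

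In the carnitine shuttle list 8 of 10 genes were measured, with median changes of 0.41 to day 4 and 0.12 from day 4 to day 7, and 0 were called in any step with limma. At an unadjusted p under 0.05, 1, 2 and 3 of the 8 passed between days 4 and 0, 7 and 4, and 7 and 0, against 16.2%, 11.9% and 17.3% of all genes. Crat, which joins acetyl groups to carnitine, had a log2 change of -1.08 from day 4 to day 7 (adjusted p = 0.347, limma). Cpt1b, the muscle form of CPT1, was not analysed here.

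Of the fatty acid uptake and activation list 10 of 16 genes were measured and 0 were called with limma, with 3, 4 and 2 of the 10 at an unadjusted p under 0.05 between days 4 and 0, 7 and 4, and 7 and 0, against 16.2%, 11.9% and 17.3% of all genes. Slc27a2, a very long-chain acyl-CoA synthetase and transporter, lay at 10.55, 11.34 and 10.19 in the deletion line and at 11.05, 11.50 and 10.28 in the full-length line, a log2 difference of -1.19 between days 7 and 4 (adjusted p = 0.0897, limma). Fabp3, a cytosolic fatty acid carrier, had a log2 difference of 1.65 between days 7 and 0 (adjusted p = 0.0990, limma). The peroxisomal oxidation list had 14 of 18 genes measured and 0 called with limma, with 1, 2 and 4 at an unadjusted p under 0.05, and Ehhadh had its largest change. Hacl1, of peroxisomal alpha-oxidation, had a log2 difference of 1.00 between days 7 and 0 (adjusted p = 0.157, limma).

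The malonyl-CoA and fatty acid synthesis list, the opposing arm, had all 16 genes measured and 0 called with limma, with 2, 2 and 6 of the 16 at an unadjusted p under 0.05, against the same 16.2%, 11.9% and 17.3%. Its median changes were 0.06 to day 4 and -0.18 from day 4 to day 7. Acaca, which makes malonyl-CoA, lay at 9.52, 9.48 and 8.83 in the deletion line and at 9.74, 9.45 and 9.31 in the full-length line. Fasn, the fatty acid synthase, lay at 11.14, 10.70 and 10.81 in the deletion line and at 11.73, 11.73 and 10.57 in the full-length line. Day 7 was the lowest day in both lines for Acaca and in the full-length line for Fasn, and neither was called, with log2 differences between days 7 and 0 of -0.56 for Acaca (adjusted p = 0.282, limma) and -0.75 for Fasn (adjusted p = 0.240, limma).

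Among regulators of oxidation, 17 of 20 genes were measured and Esrrb was called. At an unadjusted p under 0.05 (limma), 3, 1 and 3 of the 17 passed between days 4 and 0, 7 and 4, and 7 and 0. The shares over all genes were 16.2%, 11.9% and 17.3%. Esrrb, an estrogen-related receptor that is also a pluripotency factor and stands in the pluripotency marker list too, fell to day 4 by 1.68 on the log2 scale (SE 0.27, adjusted p = 0.0349, limma). Its levels were 11.34, 10.24 and 10.79 in the deletion line and 11.69, 9.43 and 10.56 in the full-length line, and 2 further probe sets were lower at day 4 by log2 differences of -1.10 and -1.61. The call was lost without any 1 of the 6 arrays, with adjusted p up to 0.460. Klf15, a regulator of fasting metabolism, had a log2 change of 1.80 to day 4 (adjusted p = 0.129, limma). Ppara, the PPAR receptor that drives these enzymes in liver, had 3 probe sets whose highest mean signal was 36.7, below the floor. Ppard had a log2 change of 0.02 to day 4 (adjusted p = 0.994, limma), the mean of 0.38 in the deletion line and -0.35 in the full-length line. From day 4 to day 7 its changes were -1.16 in the deletion line and 0.68 in the full-length line.

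Plin2, which coats lipid droplets and is a PPAR target, rose 2.31-fold to day 4 (log2 1.21, SE 0.20, adjusted p = 0.0413, limma) and stood 5.46-fold above day 0 at day 7 (log2 2.45, SE 0.20, adjusted p = 0.00659, limma). Its levels were 9.43, 10.81 and 11.74 in the deletion line and 9.86, 10.89 and 12.45 in the full-length line, higher on each later day in both lines. The day 7 call was lost without either line's day 0 or day 7 array, with adjusted p up to 0.326, and the day 4 call without any 1 of the 6 arrays. Plin2 was the 1 called gene of 12 measured in the list of PPAR targets outside oxidation and the 1 of 13 in the triglyceride list. At an unadjusted p under 0.05 (limma), 5, 3 and 4 of the 12 passed between days 4 and 0, 7 and 4, and 7 and 0. Of the 13, 2, 1 and 3 passed, against 16.2%, 11.9% and 17.3% of all genes.

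In the PPAR target list Pdk4, which restrains glucose oxidation when fat is burned, lay at 7.84, 7.93 and 8.25 in the deletion line and at 7.79, 6.58 and 8.37 in the full-length line. Like Slc25a20 it was lowest at day 4 in the full-length line alone, and its log2 change from day 4 to day 7 was 1.06 (adjusted p = 0.376, limma). Vnn1, another target in that list, had a log2 difference of 2.90 between days 7 and 0 (adjusted p = 0.118, limma) and was at the floor on the full-length day 0 array. Abhd5, the lipolysis activator in the triglyceride list, had one of 1.73 (adjusted p = 0.0583, limma). The ketone body list had 4 of 6 genes measured and 0 called with limma, with 1, 1 and 0 at an unadjusted p under 0.05, and Oxct1, which lets cells use ketone bodies, had a log2 change of -0.90 from day 4 to day 7 (adjusted p = 0.121, limma).

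**Figure D4:**
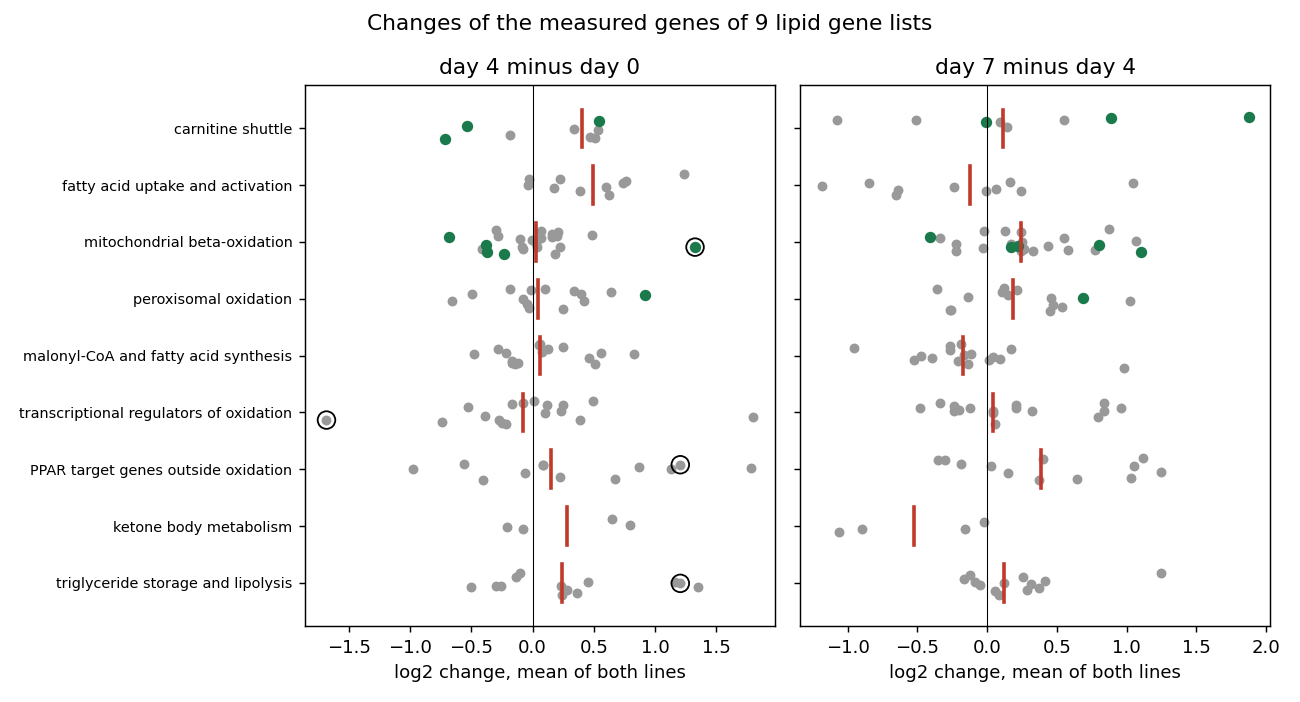
Log2 change (horizontal axis, mean of the lines) between days 4 and 0 (left) and days 7 and 4 (right) for the measured genes of the 9 pathway lists (down the page, 1 dot per gene), with the 9 genes described here in green, list medians as red bars and genes with an adjusted p under 0.05 circled. Acadl and Plin2, which stands in 2 lists, were called higher and Esrrb lower between days 4 and 0, and no dot is circled between days 7 and 4.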

How the data were processed

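Expression was measured on 6 Affymetrix arrays, 1 per line and day. The values are log2 signals that the authors deposited, computed by MAS5 according to the submitters' processing notes. The log2 base was read from the values, whose largest was 15.68 and whose trimmed mean signal lay between 496.67 and 497.94 on each array. Probe sets were named from the 2016 platform annotation, and 34945 of 45037 name 1 gene. All value columns matched a sample.

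A gene's level is its brightest probe set by mean signal, and values under the floor of 41.2, the median over arrays of the 40th percentile, were set to it. Tests used limma 3.58.1 in R 4.3.3 with line and day as factors and eBayes with trend, leaving 2 residual degrees of freedom, and were tested on simulated data. The members and lists were chosen with earlier results of these data known. Named genes are the members, called list genes or otherwise those with the largest changes, fixed partners of the pathway, and the 5 genes nearest to Cpt1a. Promoters are from RefSeq, GRCm38.p6, and all 9 matched. Alternatives covered filter, floor, scaling, probe sets, trend, the line factor and each array left out.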

Additional observations from a re-analysis of the deposited data

Results flagged for a closer look

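Each of these results went one way in the deletion line and the other way in the full-length line, and none of the differences was tested, since each line had 1 array per day. Slc25a20 between days 4 and 0 had a log2 change of 0.16 in the deletion line and -1.23 in the full-length line, a difference of 1.39, and its second probe set had 0.33 and -1.18. Cpt1a between days 7 and 0 had 1.03 in the deletion line and -0.69 in the full-length line, a difference of 1.72. Its probe set 1460409_at had 1.02 and -0.33, and 1438156_x_at had 0.61 and 0.11, the same direction in both lines. Acadm between days 7 and 0 had 0.44 in the deletion line and -0.20 in the full-length line, a difference of 0.64. Acadvl between days 4 and 0 had 0.10 in the deletion line and -0.56 in the full-length line, a difference of 0.66. Cpt2 between days 7 and 4 had -0.26 in the deletion line and 0.25 in the full-length line, a difference of -0.51, while its dimmer probe set had 0.77 and 0.78.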

How the results depend on the processing

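The call of Acadl between days 4 and 0, the 1 of 9 genes called, was kept in 6 of 10 other settings and in 2 of 6 with an array left out, with adjusted p between 0.0177 and 0.430. The count was 0 with no filter on dim genes, with the mean over probe sets, with eBayes without trend and with day as the only factor, and it lay between 0 and 1 with 1 array left out. The cause was not tested, except that leaving out a day 0 or day 4 array leaves that day with 1 array, assumed to vary like the rest. The counts for the other steps stayed at 0. Over all genes, 210 were called between days 4 and 0, against 0 with no filter, 14 with the mean over probe sets, 16 without trend, 18 with day only, 319 with arrays scaled to equal medians (172 higher and 147 lower) and 320 with every probe set. It was 0 without any 1 of the 4 arrays of days 0 and 4, and 100 and 129 without a day 7 array. Between days 7 and 4 there were 2, against 44 with equal medians and 0 without any 1 array. Between days 7 and 0 there were 137, against 0 with no filter, 3 without trend, 5 with the mean over probe sets, 12 with day only, 67 with no floor, 227 with equal medians, 212 with every probe set and 0 to 10 with 1 array left out. The 2 genes higher in the deletion line on all 3 days became 0 with the brightest probe set without the suffix _x_at or _s_at, a setting chosen after seeing the data. The mean Cpt1a line difference of 2.32 was then 0.44, and 1.21 with the mean over probe sets, while that of Hadhb, 0.88, was -0.17 and 0.29. Cpt2 between days 7 and 4, near 0, turned to 0.03 with equal medians and 0.23 with the mean over probe sets. With 1 array left out the sign turned in 6 changes, none of them called: between days 4 and 0 for Cpt1a (-1.50 to 0.0725), Slc25a20 (-1.18 to 0.11) and Acadvl (-0.51 to 0.0475), between days 7 and 4 for Cpt2 (-0.24 to 0.23), and between days 7 and 0 for Cpt1a (-0.62 to 0.96) and Acadm (-0.16 to 0.40). No paired analysis was possible because the labels give no replicate numbers, beyond the pairing of days within a line that the line term of the model already makes. Without that term (day only) the adjusted p of Acadl was 0.124.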
